A study of Mus musculus with 40 samples.

Results

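The results describe how samples of mature mice from the day of rib resection differed from mature baseline samples. The comparison sets the 4 mature libraries labelled 0 days post resection (0dpr) against the 4 mature baseline libraries. They were chosen by their column names in the filtered raw count table, and all 21204 genes of that table were tested. The 8 samples belong to a series of 40 labelled samples, 39 of which have counts. The series used bulk RNAseq to follow rib callus in immature and mature mice at 10 combinations of age and stage. All groups were female wild type mice of 1 strain, written C75BL/6 in the methods, with no drug or transgene named. Mature mice were labelled as older than 10 months and immature mice, which served as the side by side comparison, as 7 weeks old. Baseline samples were labelled as a composite of bone, bone marrow and intercostal muscle, and 0dpr samples as bone callus from the day of the operation. The labelled tissue thus differs with the group, and effects of the tissue taken and of resection cannot be told apart. Below, rose and fell mean higher and lower at 0dpr than at baseline. The labels place the baseline collection after resection, whereas the methods define baseline as tissue taken before it, and the labels were used here. Tissue was snap frozen and ground, and total RNA went into stranded TruSeq libraries read as paired ends on a NovaSeq. The pooled libraries were sequenced in separate runs, and which library went into which run is not given, so effects of the run and of the group cannot be told apart. The methods speak in general of individual biological samples and do not state for these libraries whether each came from its own animal. The p-values therefore measure the spread between these samples, part of which may be technical.

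A rib carries a thin cortex around blood-forming marrow and is flanked by intercostal muscle, periosteum, vessels and fat. Cutting it brings a wound response in stages. Immediate early genes, which encode short-lived transcription factors and feedback regulators, are transcribed first from factors already present in the cell. Cytokines and chemokines follow and call in neutrophils and monocytes, while bone-forming and bone-resorbing cells act later on the callus.

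The 4 mature baseline libraries held 8284742, 10385894, 10134657 and 8804200 counts. In the 0dpr group the totals were 7627765, 8369777, 11617195 and 7901189 counts. The mean difference, 0dpr minus baseline, was -523000 counts (two-sided exact permutation test, p = 0.714, n = 4 each), so depth did not separate the groups. The makeup of the counts did. The 10 most abundant genes of a library took 17.5% ± 3.19 (SD) of the counts at 0dpr and 10.8% ± 1.42 at baseline. Mitochondrially encoded genes took 6.04% ± 0.845 and 3.58% ± 1.01, and the TMM scaling factor was 0.87 ± 0.0801 and 1.08 ± 0.0831. Each of these 3 measures gave an exact permutation p of 0.0286, the smallest that the 70 regroupings of 4 against 4 can give. 0dpr replicate 2 stood closest to baseline, with a mean correlation across genes of 0.953 with its own group and 0.95 with the baseline libraries. Levels below are in CPM, counts scaled by the TMM-adjusted library size, as mean ± SD of 4 libraries where an error is given.

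At an adjusted p under 0.05, 4775 of 21204 genes changed in mature mice, which is 22.5% of those tested. Of these, 2517 rose (11.9%) and 2258 fell (10.6%). These shares of all tested genes are the background for every list count in mature mice given below. Adjusted p-values given below for immature mice come from the same fit of all libraries, which called 2257 genes in them. With only the 8 immature baseline and 0dpr libraries in the fit, 48 were called. A log2 fold change above 1 was reached by 1012 genes that rose, and 887 that fell were below -1. An unadjusted p under 0.05 was reached by 7321. For 5113 genes (24.1%) every library of 1 group lay above every library of the other. The number that fell depended on single libraries: it was 1470 without baseline replicate 2, 1312 without 0dpr replicate 1 and 1192 without 0dpr replicate 3. Without 0dpr replicate 3 the total was 3099, and it ran up to 5451 in the other 7 such fits. The called genes of the sarcomere, oxidative phosphorylation, mitochondrially encoded and fatty acid synthesis lists were all higher at 0dpr. Those of the neutrophil, cell cycle, osteoblast, osteocyte and osteoclast lists were all lower. Not every member of these lists was called, and of 8 osteocyte genes 2 were. With the mean log2 CPM of the sarcomere genes as a covariate, 33 genes were called, 29 higher and 4 lower, of which 19 were also called without it, and 2389 reached an unadjusted p under 0.05. The summed level of the sarcomere genes separates the groups without overlap, so this fit cannot tell their level and the group apart, and a call lost in it does not show that the gene followed muscle. Among the 120 called genes named in the results, 59 kept a log2 fold change within 1.5 times that without the covariate, such as Csf1r, the receptor for macrophage growth factor, with -0.69 (adjusted p = 0.112) beside -0.80. Under that covariate the 50 gene lists described below held 2 called immediate early genes, 1 clock gene, 1 cytokine gene, 1 coagulation gene and 1 immunoglobulin gene in each direction.

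**Figure D1:**
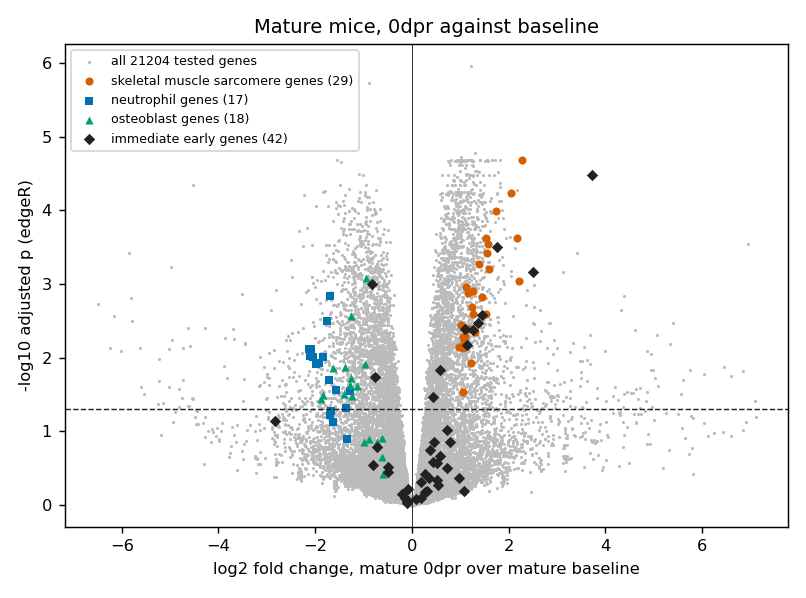
Log2 fold change of each of the 21204 genes (0dpr against baseline, mature mice), of which 2517 were called higher and 2258 lower. Calls were made on both sides and the median of all genes was -0.02.

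**Figure D2:**
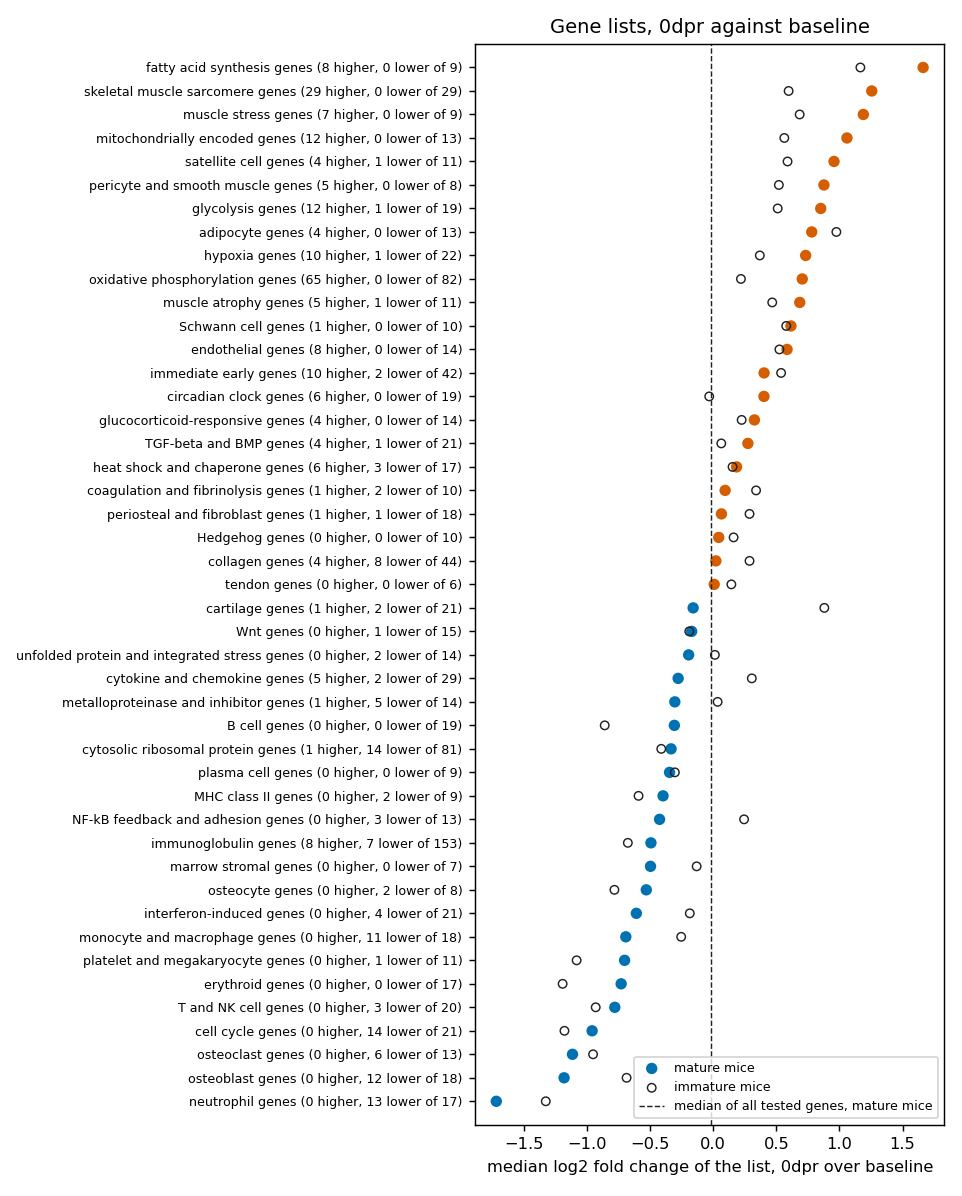
Median log2 fold change of gene lists in mature (filled) and immature mice (open), with counts of members called higher and lower in mature mice. The liver, brown fat, lung epithelial, skin and mammary epithelial and mesothelial lists are not drawn. Of these, liver (4.78) and brown fat genes (3.69) had larger medians in mature mice than any list drawn. Sarcomere genes (1.26) and fatty acid synthesis genes (1.66) lie to the right of all tested genes (-0.02), and neutrophil genes (-1.72) and osteoblast genes (-1.18) to the left.

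All 29 genes of the skeletal muscle sarcomere list rose, with a median log2 fold change of 1.26 beside -0.02 over all tested genes. Their summed level was 54700, 52900, 96600 and 102000 CPM in baseline replicates 1 to 4 and 187000, 141000, 281000 and 165000 CPM in 0dpr replicates 1 to 4. The lowest 0dpr library thus lay above the highest baseline library, and the group means were 76600 ± 26400 and 194000 ± 61300 CPM, a ratio of 2.53. Ttn, the giant spring protein of the sarcomere, was the most abundant member. In bulk tissue, more or fewer cells of a type and more or less RNA per cell cannot be told apart. The share of muscle in each sample was not measured otherwise, and its part in the changes described below cannot be told from the covariate fit above.

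The smallest p-values in the list were those of slow-fibre genes. Tnnc1, the calcium sensor of slow and cardiac muscle, read 34, 21.5, 42.2 and 54.3 CPM at baseline and 171, 140, 198 and 225 CPM at 0dpr. The log2 fold change was 2.28 (SE 0.308, adjusted p = 2.06e-05). No 0dpr library came near the baseline range. Tnni1, the inhibitory subunit of slow troponin, rose by 2.04 (SE 0.326, adjusted p = 5.8e-05), and Tnnt1, the subunit that binds tropomyosin, by 1.73 (SE 0.296, adjusted p = 0.000104). Myh7, the slow myosin motor, went from 235 ± 96.7 to 1060 ± 216 CPM, a log2 fold change of 2.17 (SE 0.402, adjusted p = 0.000238). The range over the 29 members was 0.98 to 2.28. In immature mice the same 4 genes had log2 fold changes of 0.77, 0.60, 0.50 and 0.56, all short of the threshold (adjusted p = 0.0888, 0.228, 0.283 and 0.377).

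Among genes of strained and damaged muscle, 7 of 9 members of the muscle stress list rose, with a median of 1.19. Fhl1, a LIM protein of the sarcomere, went from 805 ± 260 to 1900 ± 360 CPM, a log2 fold change of 1.24 (SE 0.231, adjusted p = 0.000252). Flnc, a filamin that crosslinks actin at the Z disc, rose by 1.20 (SE 0.248, adjusted p = 0.000671), although 0dpr replicate 4 at 837 CPM lay within the baseline range. Ankrd1, a stress-induced ankyrin repeat protein, rose by 1.08 (SE 0.238, adjusted p = 0.0012), from 7.5 ± 0.974 to 15.9 ± 4.64 CPM. Its log2 fold change in immature mice was -0.15 (adjusted p = 0.767).

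Of 11 muscle atrophy genes, 5 rose and 1 fell (median 0.69), together 54.5% beside 22.5% of all tested genes. Without baseline replicate 1 or 2 the number that rose was 3, and without 0dpr replicate 2 the number that fell was 2. Fbxo32, a ubiquitin ligase of muscle wasting, read 89.1, 94.9, 195 and 235 CPM at baseline and 312, 366, 539 and 292 CPM at 0dpr, a log2 fold change of 1.30 (SE 0.331, adjusted p = 0.00435). The other wasting ligase, Trim63, rose by 1.08 (adjusted p = 0.0113), a call that was lost without baseline replicate 1 (0.92, adjusted p = 0.057) or baseline replicate 2 (0.92, adjusted p = 0.0602). Both ligases lay higher in every 0dpr library than in any baseline library, and with the sarcomere covariate their log2 fold changes were -0.01 and -0.11. Chrna1, the acetylcholine receptor subunit that spreads over denervated fibres, went from 4.66 ± 2.06 to 12.9 ± 1.7 CPM, a log2 fold change of 1.47 (SE 0.31, adjusted p = 0.000815). Mstn, the muscle growth inhibitor myostatin, rose by 1.03 (SE 0.276, adjusted p = 0.00613). Runx1, a transcription factor of denervated muscle and of blood cells, was the member that fell, from 65.3 ± 17.3 to 31.2 ± 8.12 CPM, a log2 fold change of -1.07 (SE 0.197, adjusted p = 0.000221).

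In the satellite cell list 4 of 11 members rose and 1 fell (median 0.96), together 45.5% beside 22.5% of all tested genes. The number that rose was 2 without baseline replicate 1, baseline replicate 2 or 0dpr replicate 4. Myod1, the myogenic transcription factor of activated satellite cells, read 3.46, 4.53, 5.03 and 5.39 CPM at baseline and 14.3, 9.61, 21.2 and 17.5 CPM at 0dpr. Its log2 fold change was 1.77 (SE 0.282, adjusted p = 5.85e-05), with all 0dpr libraries above all baseline libraries. Itga7, the laminin receptor of muscle, rose by 1.14 (SE 0.219, adjusted p = 0.000324). Megf10, a receptor of quiescent satellite cells and of phagocytosis, fell by 1.05 (SE 0.27, adjusted p = 0.00468), from 29.4 ± 4.12 to 14.3 ± 5.43 CPM. Snap25, a SNARE protein of synaptic vesicle release, was among the 12 largest increases at 3.47 (SE 1.0, adjusted p = 0.011). Its level was 0.203 ± 0.235 CPM at baseline, and 0dpr replicate 3 read 6.76 CPM while the other 0dpr libraries read 0.627, 0.624 and 1.81 CPM. Without that library the log2 fold change was 2.22 and the call was lost (adjusted p = 0.15).

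Genes of energy metabolism rose in large numbers. In the oxidative phosphorylation list, 65 of 82 nuclear genes rose, with a median of 0.71, and 46 to 69 did so with any 1 library left out. Their summed level was 12900, 12000, 17200 and 18800 CPM at baseline and 30400, 19500, 26400 and 25300 CPM at 0dpr, with Atp5b, the catalytic subunit of ATP synthase, the most abundant member. Every 0dpr library was above every baseline library. Sdha, the flavoprotein of complex II, had a log2 fold change of 1.03 (SE 0.141, adjusted p = 2.09e-05). Atp5b rose by 0.92 (SE 0.151, adjusted p = 7.11e-05). In immature mice Atp5b had a log2 fold change of 0.43 (adjusted p = 0.056).

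Mitochondrially encoded genes showed the same direction, with 12 of 13 higher and a median of 1.06. That count was 6 without baseline replicate 1, 7 without baseline replicate 2 or 4, 5 without 0dpr replicate 1 and 6 without 0dpr replicate 3. The summed level was 12100, 13600, 22300 and 18000 CPM at baseline and 38500, 28000, 40200 and 30500 CPM at 0dpr, with no overlap. mt-Co1, a subunit of cytochrome c oxidase and the most abundant member, rose by 1.11 (SE 0.243, adjusted p = 0.00119). mt-Nd1, a subunit of complex I, rose by 1.11 (SE 0.22, adjusted p = 0.00047). Copies of mitochondrial sequence in the nuclear genome could share reads with these genes, so their counts are uncertain.

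Glycolysis gave 12 of 19 genes higher and 1 lower (median 0.85), and 2 lower without 0dpr replicate 1. Aldoa, the muscle aldolase and most abundant member, went from 4440 ± 1670 to 10200 ± 2850 CPM, a log2 fold change of 1.20 (SE 0.232, adjusted p = 0.000352). Tpi1 and Gapdh, the next enzymes of the pathway, rose by 1.09 (adjusted p = 0.000127) and 1.04 (adjusted p = 0.000194). Hk1, the hexokinase of blood and many other tissues, was the member that fell, by -0.78 (SE 0.198, adjusted p = 0.00407). The hypoxia list, which contains several of the same enzymes, had 10 of 22 genes higher and 1 lower (median 0.73). The gene that fell was not called without baseline replicate 1, 0dpr replicate 1 or 0dpr replicate 3, and 2 fell without baseline replicate 4. Ldha, which makes lactate, rose by 1.01 (SE 0.166, adjusted p = 7.72e-05).

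Outside glycolysis, 3 members of the hypoxia list were chosen for small p-values. Pdk1, a kinase that inhibits pyruvate dehydrogenase, read 50.8, 49.9, 60.9 and 70 CPM at baseline and 117, 96.4, 124 and 112 CPM at 0dpr, a log2 fold change of 0.96 (SE 0.133, adjusted p = 2.09e-05). Egln1, the oxygen-sensing prolyl hydroxylase, rose by 1.12 (SE 0.162, adjusted p = 2.43e-05). Adm, the vasodilator adrenomedullin, went from 2.64 ± 0.917 to 9.38 ± 2.03 CPM, a log2 fold change of 1.83 (SE 0.286, adjusted p = 4.87e-05). Each of these 3 genes was higher in all 4 0dpr libraries than in any baseline library. In immature mice Pdk1 (0.59, adjusted p = 0.00518) and Adm (1.00, adjusted p = 0.0202) also rose, and Egln1 had 0.32 (adjusted p = 0.199).

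Enzymes of fat synthesis had a higher median than the lists of glycolysis, hypoxia and oxidative phosphorylation. Of 9 fatty acid synthesis genes 8 rose, with a median of 1.66, and 7 to 9 rose with any 1 library left out. The summed level was 1540, 3020, 2910 and 6130 CPM at baseline and 16800, 8520, 9970 and 9790 CPM at 0dpr, and Scd1, the stearoyl-CoA desaturase, was the most abundant member. Elovl6, which elongates palmitate, read 16.7, 44.5, 43.9 and 73.5 CPM at baseline and 261, 105, 123 and 175 CPM at 0dpr, a log2 fold change of 1.90 (SE 0.409, adjusted p = 0.000997). The 0dpr libraries all exceeded the highest baseline library. Me1, which supplies NADPH, rose by 1.83 (SE 0.302, adjusted p = 7.61e-05), Acaca, the acetyl-CoA carboxylase, by 1.57 (SE 0.314, adjusted p = 0.000509) and Acly, the ATP citrate lyase, by 1.37 (SE 0.239, adjusted p = 0.00013). All 4 enzymes also rose in immature mice, by 1.65, 1.17, 1.29 and 0.93 (adjusted p = 0.00937, 0.0112, 0.00849 and 0.0118).

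General adipocyte genes moved less, with 4 of 13 higher (30.8%, median 0.78), beside 11.9% of all tested genes. That count was 1 without baseline replicate 1, baseline replicate 2 or 0dpr replicate 1 and 2 without baseline replicate 3. Lpl, the lipoprotein lipase and most abundant member, rose from 444 ± 97.2 to 971 ± 312 CPM, a log2 fold change of 1.13 (SE 0.225, adjusted p = 0.000476). The summed adipocyte level was 2530, 2270, 2570 and 4070 CPM at baseline and 6930, 4070, 4810 and 3870 CPM at 0dpr, and the groups overlapped at baseline replicate 4. Brown fat genes differed between the 0dpr samples themselves. Ucp1, the uncoupling protein of brown fat, read 6.81, 39.7, 1.77 and 6.4 CPM at baseline and 851, 30.3, 105 and 6.95 CPM at 0dpr, so that replicate 1 stood far above the rest and the groups overlapped. The call for Ucp1 (4.15, adjusted p = 0.0335) was lost without baseline replicate 1 (adjusted p = 0.0923), baseline replicate 3 (0.0903), baseline replicate 4 (0.076) or 0dpr replicate 1 (1.81, adjusted p = 0.394). Cidea, a lipid droplet protein of brown fat, rose by 4.32 (SE 1.02, adjusted p = 0.00225), and by 2.74 without 0dpr replicate 1. In the brown fat list 3 of 5 genes rose (median 3.69), and 1 did without 0dpr replicate 1. Its summed level was 234, 270, 306 and 350 CPM at baseline and 1710, 340, 669 and 500 CPM at 0dpr, with Cox8b, a subunit of cytochrome c oxidase shared with muscle, the most abundant member.

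**Figure D3:**
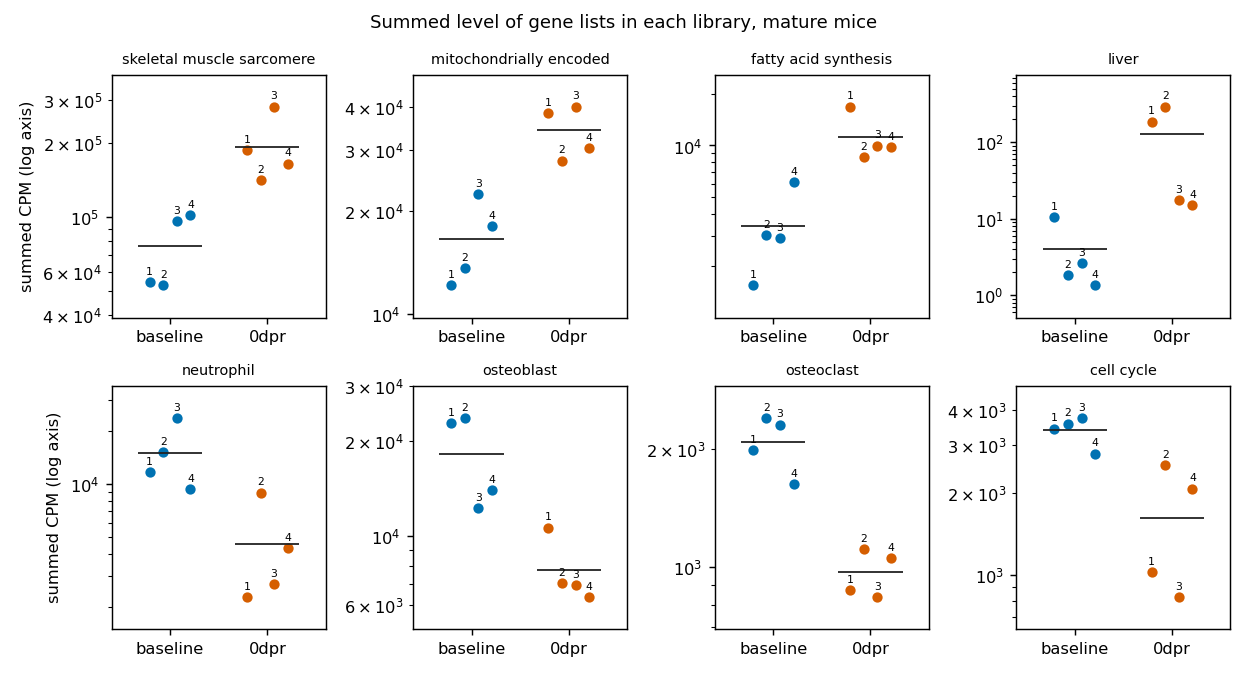
Summed level in CPM on a log axis of 8 gene lists in each of the 8 mature libraries, with points for libraries and lines for group means. Sarcomere genes lay between 141000 and 281000 CPM at 0dpr and between 52900 and 102000 CPM at baseline, whereas neutrophil genes lay between 2280 and 8940 CPM and between 9370 and 23800 CPM.

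Of 42 tested immediate early genes 10 rose and 2 fell (median 0.40), together 28.6% beside 22.5% of all tested genes, and 8 to 11 rose with any 1 library left out. Without baseline replicate 2 or 0dpr replicate 3, 1 fell. Fosb, an AP-1 subunit, read 1.15, 1.17, 0.591 and 1.68 CPM at baseline and 26.8, 4.86, 23.8 and 5.97 CPM at 0dpr. The log2 fold change was 3.73 (SE 0.563, adjusted p = 3.36e-05), and 4.74 (adjusted p = 0.00229) with the sarcomere covariate. Egr1, a zinc finger factor induced by growth signals, read 12.5, 11.2, 11.9 and 9.42 CPM at baseline and 80.8, 28.7, 100 and 47.9 CPM at 0dpr, a log2 fold change of 2.51 (SE 0.52, adjusted p = 0.000688). For both genes 0dpr replicates 1 and 3 were the highest, replicates 2 and 4 were lower, and all 4 exceeded every baseline library.

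The same order of the 0dpr libraries appeared in other members. Fos, the partner of Jun in AP-1, read 144, 44.3, 121 and 70.3 CPM at 0dpr against 27.9 ± 6.39 CPM at baseline, a log2 fold change of 1.77 (SE 0.337, adjusted p = 0.000315), and 2.17 (adjusted p = 0.0348) with the sarcomere covariate. Jun itself rose by 1.45 (SE 0.348, adjusted p = 0.00264), with 167, 74.7, 149 and 75.2 CPM at 0dpr. Zfp36, which speeds the decay of cytokine messages and was chosen after its values were seen, rose by 1.36 (SE 0.335, adjusted p = 0.00336), with 104, 40.5, 101 and 59.5 CPM. Fosl2, a later AP-1 subunit that is also expressed in bone cells, went the other way. It read 81.6, 109, 101 and 107 CPM at baseline and 54.7, 56.4, 56.6 and 56 CPM at 0dpr, a log2 fold change of -0.83 (SE 0.18, adjusted p = 0.001), with no overlap. In immature mice Fosb, Egr1 and Fos rose by 4.80, 3.55 and 3.38 (adjusted p = 5.78e-06, 0.000148 and 9.91e-07), and Fosl2 had 0.02 (adjusted p = 0.955). Srf, the factor that binds CArG boxes, was also chosen after its values were seen. It rose by 0.44 (SE 0.151, adjusted p = 0.034) in mature mice, a call lost without baseline replicate 1 (0.35, adjusted p = 0.132), baseline replicate 2 (0.42, adjusted p = 0.0821), 0dpr replicate 1 (0.36, adjusted p = 0.126) or 0dpr replicate 3 (0.40, adjusted p = 0.0974).

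**Figure D4:**
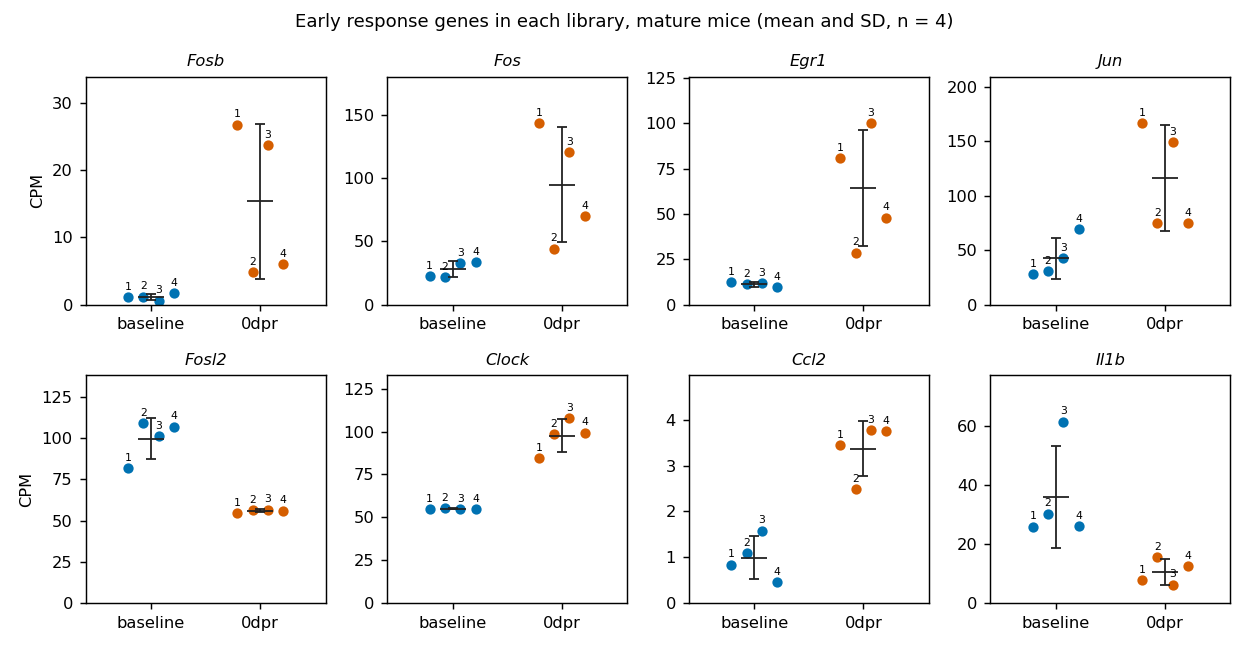
Level in CPM in each mature library of 6 transcription factors, Fosb, Fos, Egr1, Jun, Fosl2 and Clock, and of the cytokines Ccl2 and Il1b, with mean and SD. Fosb lay between 4.86 and 26.8 CPM at 0dpr and between 0.591 and 1.68 CPM at baseline, while Fosl2 lay near 56 CPM at 0dpr and between 81.6 and 109 CPM at baseline.

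The promoters of Fosb, Fos, Zfp36, Srf, Dusp1 and Hspb1 are shown because these genes rose and encode early or stress-response proteins. The windows are the 250 bases before the gene start in the RefSeq table for build GRCm38.p6, read on the strand of the gene. Both strands were searched for CRE (TGACGTCA), AP-1 (TGACTCA), E-box (CACGTG) and heat shock element (GAANNTTC) letters, and for the CArG box and the glucocorticoid response element by name. Of 32851 windows, 1.55% held a CRE, 4.46% an AP-1 match, 6.02% an E-box, 1.47% a CArG box, 6.69% a heat shock element and 0.113% a glucocorticoid response element. Among the 12 called immediate early genes 9 had 1 window each, of which 2 held a CArG box, 2 a heat shock element, 1 a CRE and 1 an E-box. Among the 9 called heat shock genes 7 had a window, and AP-1, E-box and heat shock element letters occurred in 1 each of their 10 windows. Of the 6 called clock genes 4 had a window, and their 7 windows held no match. The called glucocorticoid-responsive genes with a window were 4, with 9 windows, 6 of them at Sgk1. An E-box occurred in 2 of these windows, a heat shock element in 2, a CRE in 1 and a glucocorticoid response element in 1. The windows below lie at chr7:19310046-19310295 (Fosb, minus strand), chr12:85473640-85473889 (Fos, plus), chr7:28379229-28379478 (Zfp36, minus), chr17:46556163-46556412 (Srf, minus), chr17:26508473-26508722 (Dusp1, minus) and chr5:135887669-135887918 (Hspb1, plus). Capitals mark a CArG box in Zfp36, a pair of CArG boxes in Srf, a CRE and an E-box in Dusp1 and a pair of heat shock elements in Hspb1. A match is a description of the sequence, and in Fosb and Fos these letters do not occur in the window.
Fosb: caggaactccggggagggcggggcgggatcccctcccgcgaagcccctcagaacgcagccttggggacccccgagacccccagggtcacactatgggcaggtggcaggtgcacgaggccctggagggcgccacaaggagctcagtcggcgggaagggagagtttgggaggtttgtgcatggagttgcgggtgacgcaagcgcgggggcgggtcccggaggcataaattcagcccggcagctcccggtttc
Fos: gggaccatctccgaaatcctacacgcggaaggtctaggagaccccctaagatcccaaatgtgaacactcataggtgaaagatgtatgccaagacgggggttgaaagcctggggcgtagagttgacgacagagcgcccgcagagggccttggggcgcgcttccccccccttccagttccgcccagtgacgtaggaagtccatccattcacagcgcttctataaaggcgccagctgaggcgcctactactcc
Zfp36: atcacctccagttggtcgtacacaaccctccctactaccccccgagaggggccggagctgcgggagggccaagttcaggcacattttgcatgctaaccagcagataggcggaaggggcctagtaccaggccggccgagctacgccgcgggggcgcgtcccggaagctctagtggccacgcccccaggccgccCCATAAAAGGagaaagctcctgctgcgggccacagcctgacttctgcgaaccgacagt
Srf: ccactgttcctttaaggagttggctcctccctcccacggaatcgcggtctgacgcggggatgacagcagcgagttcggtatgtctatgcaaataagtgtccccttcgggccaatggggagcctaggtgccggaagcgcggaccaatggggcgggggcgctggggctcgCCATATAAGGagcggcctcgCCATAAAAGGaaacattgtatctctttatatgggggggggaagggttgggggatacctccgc
Dusp1: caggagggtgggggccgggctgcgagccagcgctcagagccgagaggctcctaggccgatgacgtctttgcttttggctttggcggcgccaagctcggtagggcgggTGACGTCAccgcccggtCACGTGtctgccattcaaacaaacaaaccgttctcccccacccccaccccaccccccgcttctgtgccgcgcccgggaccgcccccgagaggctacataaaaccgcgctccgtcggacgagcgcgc
Hspb1: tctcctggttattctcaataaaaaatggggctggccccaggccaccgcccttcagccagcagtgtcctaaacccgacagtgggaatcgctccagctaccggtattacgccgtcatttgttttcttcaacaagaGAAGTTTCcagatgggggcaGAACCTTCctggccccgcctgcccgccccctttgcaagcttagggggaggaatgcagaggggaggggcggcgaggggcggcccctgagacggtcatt

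Of 17 heat shock and chaperone genes 6 rose and 3 fell (median 0.19), beside 11.9% and 10.6% of all tested genes. Only 1 fell without baseline replicate 1, 2 or 3 or without 0dpr replicate 1 or 3. Hspb8, a small heat shock protein of muscle, read 85.3, 73.3, 117 and 162 CPM at baseline and 242, 192, 310 and 273 CPM at 0dpr, a log2 fold change of 1.22 (SE 0.225, adjusted p = 0.000236). Bag3, its co-chaperone, rose by 0.85 (SE 0.167, adjusted p = 0.000416), and Cryab, the crystallin that guards desmin, by 1.08 (SE 0.232, adjusted p = 0.00101). For these 3 genes the groups did not overlap. Hspb1, whose window holds the pair of heat shock elements, rose by 1.03 (SE 0.272, adjusted p = 0.00562), with 0dpr replicate 2 at 82.6 CPM just below baseline replicate 4 at 86.2 CPM. Dnajb1, a co-chaperone of the general heat shock response, fell from 53.4 ± 5.67 to 33.7 ± 9.74 CPM, a log2 fold change of -0.66 (SE 0.17, adjusted p = 0.00464).

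Of 19 circadian clock genes 6 rose (31.6%, median 0.40), beside 11.9% of all tested genes, and 3 fell when 0dpr replicate 1 was left out. Clock, the core activator of the loop, read 54.6, 55.3, 54.7 and 55 CPM at baseline and 84.5, 98.5, 108 and 99.5 CPM at 0dpr. The log2 fold change was 0.83 (SE 0.128, adjusted p = 4.51e-05) and 0.84 with the sarcomere covariate (adjusted p = 0.0388). The 4 baseline libraries differed by less than 1 CPM. Rora, a nuclear receptor that drives Bmal1, rose by 1.02 (SE 0.184, adjusted p = 0.00018). Bhlhe40, a repressor of the loop that other stimuli also induce, rose by 0.86 (SE 0.212, adjusted p = 0.00322), although 0dpr replicate 2 lay within the baseline range. In immature mice 5 clock genes rose and 5 fell, beside 5.98% and 4.66% of all tested genes. The test of the difference between ages called 0 genes of this list. The hour of the day at which each sample was taken is not given, so it cannot be told apart from the group.

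Among 14 glucocorticoid-responsive genes 4 rose (28.6%, median 0.33), beside 11.9% of all tested genes, and 2 did without baseline replicate 1 or 0dpr replicate 3 and 1 without baseline replicate 2 or 0dpr replicate 1. Dusp1, a phosphatase of stress kinases, rose from 73 ± 21.3 to 155 ± 40.2 CPM, a log2 fold change of 1.09 (SE 0.277, adjusted p = 0.00416), with 0dpr replicate 2 (96.9 CPM) at the top of the baseline range. Pdk4, which spares glucose in muscle, read 164, 141, 306 and 236 CPM at baseline and 1040, 592, 502 and 164 CPM at 0dpr. The groups overlapped, and the log2 fold change of 1.44 (adjusted p = 0.0113) was no longer called without baseline replicate 2 (1.29, adjusted p = 0.0526) or 0dpr replicate 1 (1.00, adjusted p = 0.101).

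Cytokine and chemokine genes moved in both directions, with 5 of 29 higher and 2 lower (median -0.28), together 24.1% beside 22.5% of all tested genes. The number that rose was 3 without baseline replicate 1, 2 or 3 or 0dpr replicate 3 or 4. The number that fell was 5 without baseline replicate 4, 6 without 0dpr replicate 2 and 4 without 0dpr replicate 4. Ccl2, which draws monocytes, read 0.838, 1.09, 1.58 and 0.449 CPM at baseline and 3.45, 2.49, 3.77 and 3.75 CPM at 0dpr. Its log2 fold change was 1.73 (SE 0.468, adjusted p = 0.00688) and 2.55 with the sarcomere covariate (adjusted p = 0.0388). Cxcl1, which draws neutrophils, rose by 2.93 (SE 0.822, adjusted p = 0.00904), from 0.494 ± 0.331 to 3.73 ± 1.2 CPM. Both chemokines were higher in every 0dpr library than in any baseline library, at levels of a few CPM. Cxcl13, which draws B cells, read 2.2, 9.36, 9.09 and 2.5 CPM at 0dpr against 0.786 ± 0.17 CPM at baseline, a log2 fold change of 2.87 (SE 0.708, adjusted p = 0.0034).

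The 2 genes of this list that fell with all libraries in the fit were Il1b and Il1r2, both of the interleukin 1 system. Il1b, the inflammatory cytokine itself, read 25.8, 30.2, 61.4 and 26.1 CPM at baseline and 7.69, 15.5, 6.2 and 12.4 CPM at 0dpr, a log2 fold change of -1.78 (SE 0.437, adjusted p = 0.00321). Il1r2, the decoy receptor carried by neutrophils, fell from 18.8 ± 7.21 to 4.53 ± 0.879 CPM, a log2 fold change of -2.05 (SE 0.439, adjusted p = 0.000962). Neither gene overlapped between the groups. In immature mice Il1b had a log2 fold change of 0.27 (adjusted p = 0.771), and the difference between ages did not pass the test. Acod1, which makes itaconate in activated macrophages, fell from 5.33 ± 4.46 to 0.444 ± 0.349 CPM, a log2 fold change of -3.52 (SE 0.784, adjusted p = 0.00137).

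In the NF-kB feedback and adhesion list 3 of 13 genes fell (23.1%, median -0.42), beside 10.6% of all tested genes, with 1 without baseline replicate 2 or 0dpr replicate 3, 6 without baseline replicate 4 and 5 without 0dpr replicate 2. Vcam1, an adhesion molecule of vessels and marrow stroma, read 441, 289, 330 and 198 CPM at baseline and 81.6, 170, 72.8 and 141 CPM at 0dpr, a log2 fold change of -1.43 (SE 0.263, adjusted p = 0.000213). The groups did not overlap, and Vcam1 also fell in immature mice (-1.58, adjusted p = 0.000419). Interferon-induced genes fell in 4 of 21 cases (19%, median -0.61) and in 2 with RLE scaling, with 1 without baseline replicate 2, 0dpr replicate 1 or 0dpr replicate 3 and 2 without baseline replicate 3. Oas1a, a sensor of double-stranded RNA, had a log2 fold change of -1.20 (SE 0.329, adjusted p = 0.00739). The unfolded protein and integrated stress list had 2 of 14 genes lower (14.3%, median -0.19), and the number ran from 0 without 0dpr replicate 1 or 3, through 1 without baseline replicate 2 or 3, to 5 without baseline replicate 4 or 0dpr replicate 4, where 1 was higher without 0dpr replicate 4. The coagulation and fibrinolysis list had 1 of 10 genes higher and 2 lower (together 30%, median 0.09), and 1 lower without baseline replicate 2 or 0dpr replicate 3. With RLE scaling 2 were higher. Plaur, the urokinase receptor of leukocytes, fell from 37.2 ± 5.05 to 13.6 ± 5.12 CPM, a log2 fold change of -1.45 (SE 0.298, adjusted p = 0.000655). The gene that rose, Fgb, is described with the liver transcripts, and its call was lost without baseline replicate 1, 2 or 3 or 0dpr replicate 2.

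Neutrophil genes had the lowest median of the leukocyte lists. Of 17 members 13 fell, and all 17 had log2 fold changes between -2.13 and -1.29 (median -1.72). The count was 8 without 0dpr replicate 1 and 7 without 0dpr replicate 3. Their summed level was 11700, 15200, 23800 and 9370 CPM at baseline and 2280, 8940, 2680 and 4310 CPM at 0dpr, a ratio of 3.3 between the means of baseline and 0dpr. The groups did not overlap, though 0dpr replicate 2 came close to baseline replicate 4, and S100a9, a granule protein, was the most abundant member. Csf3r, the receptor of the growth factor G-CSF, read 156, 147, 181 and 90.3 CPM at baseline and 46.1, 63.5, 26.1 and 42.2 CPM at 0dpr, a log2 fold change of -1.69 (SE 0.38, adjusted p = 0.00146). Cxcr2, the receptor for Cxcl1, fell by 1.75 (SE 0.429, adjusted p = 0.00322). Prtn3, a protease of early granulocytes, fell by 2.13 (SE 0.586, adjusted p = 0.00771).

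Of 18 monocyte and macrophage genes 11 fell (median -0.69), and 6 did without baseline replicate 1, 0dpr replicate 1 or 0dpr replicate 3. Their summed level was 3780, 3540, 4120 and 2590 CPM at baseline and 1400, 2710, 1700 and 2050 CPM at 0dpr, with Lyz2 the most abundant member. 0dpr replicate 2 thus lay above the lowest baseline library. Csf1r, the receptor that sustains macrophages, read 257, 254, 245 and 205 CPM at baseline and 131, 144, 141 and 135 CPM at 0dpr, a log2 fold change of -0.80 (SE 0.133, adjusted p = 7.76e-05). Cd68, a lysosomal protein, fell by 0.98 (SE 0.211, adjusted p = 0.000977). The receptors Fcgr1 and Itgam fell by 1.29 (adjusted p = 0.00193) and 1.10 (adjusted p = 0.00436), each with 1 0dpr library inside the baseline range. Adam8, a protease of myeloid cells, and Tlr6, a receptor for bacterial lipopeptides, were chosen after their values were seen because they passed the test with the sarcomere covariate as well. Adam8 fell by 1.56 (adjusted p = 2.06e-05), and by -1.30 (adjusted p = 0.0333) with the covariate. Tlr6 fell by 1.56 (adjusted p = 7.75e-05), and by -1.63 (adjusted p = 0.0369) with it. Chosen in the same way, Dhx32, a putative RNA helicase, rose by 1.21 (SE 0.13, adjusted p = 1.1e-06) and by 0.97 (adjusted p = 0.0103) with the covariate. Tbc1d2b, a Rab GTPase-activating protein, fell from 109 ± 11.8 to 59.4 ± 3.18 CPM (-0.88, adjusted p = 1.89e-06), and by -0.69 (adjusted p = 0.0238) with the covariate.

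In the T and NK cell list 3 of 20 genes fell (15%, median -0.78), beside 10.6% of all tested genes, and 1 did without baseline replicate 1, baseline replicate 2 or 0dpr replicate 3. Nkg7, a granule protein and the most abundant member, fell from 27 ± 12.7 to 8.76 ± 3.17 CPM, a log2 fold change of -1.63 (SE 0.452, adjusted p = 0.00831). Klrc2, an activating receptor of NK cells outside the list, was among the largest decreases, with 3.14, 3.6, 1.97 and 1.57 CPM at baseline and 0.314, 0.748, 0.222 and 0.139 CPM at 0dpr (-2.81, SE 0.617, adjusted p = 0.0012). Of 9 MHC class II genes 2 fell (22.2%, median -0.40), and 1 did without baseline replicate 1 or 2 or 0dpr replicate 1 or 3. H2-DMb1, which loads peptides, had a log2 fold change of -0.71 (SE 0.179, adjusted p = 0.00399). Of 11 platelet and megakaryocyte genes 1 fell (9.09%, median -0.70), and 4 fell without 0dpr replicate 2. That gene was not called without baseline replicate 1, 2 or 3 or 0dpr replicate 1 or 3.

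Several marrow lists gave no call in edgeR or in DESeq2. The erythroid list had 0 of 17 genes past the threshold and 0 with an unadjusted p under 0.05, although all 17 log2 fold changes were negative (median -0.73). Its summed level was 21900, 19000, 26600 and 26400 CPM at baseline and 13900, 27900, 15100 and 23900 CPM at 0dpr, with 0dpr replicate 2 the highest of all 8, and 1 gene fell when that library was left out. Hbb-bs, the beta globin and most abundant member, had a log2 fold change of -0.06 (adjusted p = 0.937). The sign turned without baseline replicate 3 (0.05), 0dpr replicate 1 (0.12) or 0dpr replicate 3 (0.05). Hba-a1, an alpha globin whose reads could be shared with its near-identical copy and which is uncertain for that reason, had -0.18 (adjusted p = 0.816). The B cell list had 0 of 19 genes called and 1 with an unadjusted p under 0.05 (median -0.31), with 1 lower without baseline replicate 4 and 3 without 0dpr replicate 2. Ighm, the heavy chain of IgM, read 836, 1510, 1210 and 865 CPM at baseline and 556, 1460, 3070 and 1220 CPM at 0dpr, and its log2 fold change of 0.51 (adjusted p = 0.397) became -0.02 without 0dpr replicate 3. The plasma cell list had 0 of 9 called and 2 with an unadjusted p under 0.05 (median -0.35), with 1 lower without baseline replicate 4 or 0dpr replicate 4. Of 153 immunoglobulin genes 8 rose and 7 fell (median -0.49), together 9.8% beside 22.5% of all tested genes, with 5 higher without baseline replicate 2, and 4 lower without baseline replicate 2 or 0dpr replicate 3 and 12 lower without 0dpr replicate 2. Immunoglobulin variable genes resemble each other closely, so their separate counts are uncertain.

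Among genes of dividing cells, 14 of 21 cell cycle genes fell. All 21 had negative log2 fold changes, between -1.49 and -0.67 (median -0.96). The count was 9 without baseline replicate 3, 5 without 0dpr replicate 1 and 2 without 0dpr replicate 3. The summed level was 3430, 3580, 3750 and 2780 CPM at baseline and 1020, 2520, 831 and 2070 CPM at 0dpr, with Mki67 the most abundant member and no overlap. Tyms, which makes thymidylate for DNA, read 40.9, 38.4, 45.1 and 33.5 CPM at baseline and 12.9, 28.7, 11.3 and 20.1 CPM at 0dpr, a log2 fold change of -1.11 (SE 0.235, adjusted p = 0.000838). Here too 0dpr replicate 2 was the closest to baseline. Plk1, a kinase of mitosis, fell by 1.49 (SE 0.357, adjusted p = 0.00268), and Mcm5, a subunit of the replicative helicase, by 1.08 (adjusted p = 0.00772), with -0.86 and no call without 0dpr replicate 3 (adjusted p = 0.0553).

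Genes of cytosolic ribosomal proteins had 14 of 81 members lower and 1 higher (median -0.33), together 18.5% beside 22.5% of all tested genes. The number that fell hung on single libraries, with 7 without baseline replicate 1, 6 without baseline replicate 3, 1 without 0dpr replicate 1, 23 without 0dpr replicate 2, 4 without 0dpr replicate 3 and 37 without 0dpr replicate 4. Rpl3, a core protein of the large subunit, went from 565 ± 36.3 to 352 ± 104 CPM (-0.68, SE 0.153, adjusted p = 0.00146). Its muscle-specific relative Rpl3l was the member that rose, from 69.8 ± 25 to 165 ± 50.9 CPM (1.24, SE 0.336, adjusted p = 0.00688), and with the sarcomere covariate its log2 fold change was -0.15. Processed pseudogenes of ribosomal proteins could share reads with these genes, which makes their counts uncertain.

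Bone-forming cells were represented by 18 osteoblast genes, of which 12 fell. All 18 log2 fold changes were negative, from -1.88 to -0.60 (median -1.18). The count was 6 without baseline replicate 1 or 2, 7 without 0dpr replicate 1 and 3 without 0dpr replicate 3. The summed level was 22900, 23700, 12200 and 14000 CPM at baseline and 10600, 7060, 6960 and 6380 CPM at 0dpr, a ratio of 2.35 between the means of baseline and 0dpr. Every 0dpr library lay below every baseline library. Col1a2, a chain of type I collagen and the most abundant member, fell by 1.26 (SE 0.304, adjusted p = 0.00271). Sparc, a collagen-binding protein of bone matrix, read 2770, 2440, 1560 and 1900 CPM at baseline and 1150, 1170, 1070 and 1100 CPM at 0dpr, a log2 fold change of -0.95 (SE 0.202, adjusted p = 0.000844). The 0dpr libraries differed by far less among themselves than those at baseline. Tnfrsf11b, the decoy receptor osteoprotegerin that restrains osteoclasts, fell by 0.96 (SE 0.282, adjusted p = 0.0122). Spp1, the matrix protein osteopontin, fell by 1.39 (adjusted p = 0.0135), with -1.13 and no call without 0dpr replicate 3 (adjusted p = 0.0784).

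The osteocyte list had 2 of 8 genes lower (25%, median -0.53), beside 10.6% of all tested genes, with 1 without baseline replicate 1, 0dpr replicate 1 or 0dpr replicate 4 and 0 without baseline replicate 2 or 0dpr replicate 3. Its summed level was 113, 158, 131 and 107 CPM at baseline and 85.3, 71.6, 39.6 and 81.3 CPM at 0dpr. Dmp1, a mineral-binding protein of osteocytes and the most abundant member, read 38.8, 81.2, 72.5 and 43.6 CPM at baseline and 37.6, 19.1, 6.65 and 18.1 CPM at 0dpr. Its log2 fold change of -1.55 (adjusted p = 0.0199) lost the call without baseline replicate 2 (-1.36, adjusted p = 0.0735) or 0dpr replicate 3 (-1.23, adjusted p = 0.1). The groups of Dmp1 values did not overlap, though 0dpr replicate 1 at 37.6 CPM lay close to baseline replicate 1 at 38.8 CPM.

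Bone-resorbing cells showed the same direction, with 6 of 13 osteoclast genes lower (median -1.11) and all 13 log2 fold changes negative. The summed level was 1990, 2400, 2310 and 1630 CPM at baseline and 870, 1110, 838 and 1050 CPM at 0dpr, without overlap. Acp5, the tartrate-resistant phosphatase and most abundant member, read 474, 627, 615 and 431 CPM at baseline and 219, 225, 204 and 252 CPM at 0dpr, a log2 fold change of -1.26 (SE 0.321, adjusted p = 0.00444). Ctsk, the protease that digests bone collagen, fell by 1.35 (SE 0.342, adjusted p = 0.0041), and Tcirg1, a subunit of the acid pump, by 1.05 (SE 0.254, adjusted p = 0.00293). Itgb3, the integrin that attaches osteoclasts and platelets, fell by 0.94 (SE 0.244, adjusted p = 0.00508), with 0dpr replicate 2 at 256 CPM inside the baseline range. In immature mice these 4 genes fell by 1.05, 1.17, 0.84 and 0.95 (adjusted p = 0.0309, 0.0248, 0.0297 and 0.0122).

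In the metalloproteinase and inhibitor list 1 of 14 genes rose and 5 fell (median -0.30), 2 of which fell without 0dpr replicate 3, and the gene that rose was not called without baseline replicate 1 or 0dpr replicate 3. Mmp9, a gelatinase of osteoclasts and neutrophils, fell from 461 ± 94.2 to 201 ± 18.1 CPM (-1.20, SE 0.359, adjusted p = 0.014). Mmp13, the collagenase of bone, fell by 1.22 (adjusted p = 0.0125), with -1.05 and no call without 0dpr replicate 3 (adjusted p = 0.0657). Mmp2, the gelatinase of mesenchymal cells, fell by 0.64 (SE 0.169, adjusted p = 0.00601), with overlap between the groups. Of 44 collagen genes 4 rose and 8 fell (median 0.02), together 27.3% beside 22.5% of all tested genes, with 8 higher without baseline replicate 4. The number that fell was 5 without baseline replicate 1 or 0dpr replicate 4 and 4 without baseline replicate 2 or 0dpr replicate 3. Among those that rose, Col4a1, a chain of basement membrane collagen, read 215, 224, 248 and 374 CPM at baseline and 553, 423, 521 and 391 CPM at 0dpr, a log2 fold change of 0.83 (SE 0.2, adjusted p = 0.00266), and Col4a2 rose by 1.03 (SE 0.223, adjusted p = 0.000993). Col5a2, which caps fibrils of type I collagen, fell from 573 ± 117 to 323 ± 15.5 CPM, a log2 fold change of -0.83 (SE 0.207, adjusted p = 0.00368).

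Of 18 periosteal and fibroblast genes 1 rose and 1 fell (median 0.07), together 11.1% beside 22.5% of all tested genes, and the gene that rose was not called without baseline replicate 1, 2 or 3 or 0dpr replicate 2, 3 or 4, while 3 rose without baseline replicate 4 and 2 with RLE scaling. Of 21 cartilage genes 1 rose and 2 fell (together 14.3%, median -0.16). The gene that rose lost its call without any 1 library other than 0dpr replicate 4, and the number that fell was 0 without baseline replicate 1 or 2 or 0dpr replicate 3 or 4 and 1 without 0dpr replicate 1 or 2. Marrow stromal genes gave 0 of 7 called and 2 with an unadjusted p under 0.05 (median -0.50), with 1 lower without baseline replicate 4 or 0dpr replicate 4. Tendon genes gave 0 of 6 called and 0 with an unadjusted p under 0.05 (median 0.01), and Hedgehog genes 0 of 10 and 0 (median 0.04). DESeq2 called 0 genes of these 3 lists as well.

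Of 15 Wnt genes 1 fell (6.67%, median -0.17), beside 10.6% of all tested genes, and 2 did without baseline replicate 3 or 0dpr replicate 4. It was Wif1, a secreted inhibitor of Wnt ligands, which read 39.2, 40.6, 25.2 and 23.4 CPM at baseline and 11.5, 9.98, 12.7 and 14.6 CPM at 0dpr, a log2 fold change of -1.40 (SE 0.407, adjusted p = 0.0115). The groups did not overlap. In the TGF-beta and BMP list 4 of 21 genes rose and 1 fell (median 0.27), together 23.8% beside 22.5% of all tested genes. The number that rose was 2 without baseline replicate 1, baseline replicate 3 or 0dpr replicate 4 and 1 without baseline replicate 2 or 0dpr replicate 1. The number that fell was 0 without baseline replicate 1 or 0dpr replicate 3 and 2 without baseline replicate 4, 0dpr replicate 2 or 0dpr replicate 4. Tgfb2, a ligand made by muscle and mesenchyme, read 10.3, 9.3, 8.68 and 10.1 CPM at baseline and 26, 19.8, 27.3 and 16.8 CPM at 0dpr, a log2 fold change of 1.23 (SE 0.277, adjusted p = 0.00148). All 4 0dpr libraries were above the baseline range.

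Among vessel genes, 8 of 14 endothelial genes rose (median 0.59), and 2 of the 14 had negative log2 fold changes. With any 1 library left out 7 or 8 rose, and 1 fell without baseline replicate 4. In sum they read 747, 834, 811 and 780 CPM at baseline and 1180, 922, 1070 and 955 CPM at 0dpr, with Vwf the most abundant member. The groups did not overlap and baseline varied little. Cdh5, the cadherin of endothelial junctions, read 59.1, 56.1, 58.9 and 61 CPM at baseline and 147, 82.8, 113 and 78.3 CPM at 0dpr, a log2 fold change of 0.84 (SE 0.166, adjusted p = 0.000445). The VEGF receptors Flt1 and Kdr rose by 0.91 (SE 0.17, adjusted p = 0.000269) and 0.71 (SE 0.16, adjusted p = 0.00154). Of 8 pericyte and smooth muscle genes 5 rose (median 0.88). Summed, they read 502, 455, 569 and 596 CPM at baseline and 1040, 840, 1070 and 995 CPM at 0dpr. Rgs5, a signalling regulator of pericytes and the most abundant member, rose from 181 ± 36.3 to 438 ± 38 CPM (1.27, SE 0.182, adjusted p = 2.12e-05). Myh11, the smooth muscle myosin, rose by 1.14 (SE 0.22, adjusted p = 0.000353) and Acta2, the smooth muscle actin, by 0.98 (SE 0.259, adjusted p = 0.00552), the latter with 0dpr replicate 1 inside the baseline range. Outside the vessels, 1 of 10 Schwann cell genes rose (10%, median 0.62), beside 11.9% of all tested genes. It was Pmp22, a protein of peripheral myelin, with a log2 fold change of 0.69 (SE 0.189, adjusted p = 0.00721), and 2 rose without baseline replicate 3, 0dpr replicate 1 or 0dpr replicate 2 and with RLE or upper-quartile scaling.

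The largest increases were transcripts made by the liver. By the rule used here, 1884 genes rose with a mean of at least 1 CPM and no overlap, and 9 of the 11 named among the 12 largest encode plasma proteins of hepatocytes. Alb, serum albumin, read 9.85, 1.17, 1.58 and 1.35 CPM at baseline and 156, 264, 16.3 and 13.3 CPM at 0dpr, a log2 fold change of 5.03 (SE 1.58, adjusted p = 0.0189). 0dpr replicates 1 and 2 carried most of the signal, and the other 0dpr libraries lay just above baseline replicate 1. The fibrinogen chains Fgb and Fga had 5.60 (SE 1.78, adjusted p = 0.0204) and 5.10 (SE 1.66, adjusted p = 0.0242). Plg, the precursor of plasmin, had 3 counts in the whole baseline group and 120 at 0dpr, a ratio of 53 (95% counting interval 17.7 to 260). A1bg, Ces1c, Pzp, Apoa2 and Hpx, which also encode proteins of plasma, had 4.94, 4.85, 4.71, 4.65 and 4.40 (adjusted p = 0.00899, 0.0389, 0.0262, 0.0271 and 0.031).

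These calls rested on few libraries. Of the 9 genes, 6 were not called without baseline replicate 1, 8 without baseline replicate 2, 7 without baseline replicate 3, 3 without baseline replicate 4, 4 without 0dpr replicate 1 and 8 without 0dpr replicate 2, where adjusted p ran from 0.0413 to 0.19. With 0dpr replicates 1 and 2 both left out, all 9 lost the call, and Alb had 2.15 (adjusted p = 0.431). The liver list of 4 genes, of which Alb was the most abundant, had 2 called. That number was 1 without baseline replicate 1 or 4 or 0dpr replicate 1 and 0 without baseline replicate 2 or 3 or 0dpr replicate 2. Its summed level was 10.5, 1.84, 2.66 and 1.35 CPM at baseline and 186, 292, 17.4 and 15.1 CPM at 0dpr. With the sarcomere covariate each of the 9 genes had a larger log2 fold change. Fgb had 12.40 (adjusted p = 0.0249) beside 5.60, and Alb 9.18 (adjusted p = 0.0728) beside 5.03. That fit cannot tell the sarcomere level and the group apart. Without the covariate, Alb in immature mice had a log2 fold change of 8.58 (adjusted p = 0.00299) and Fgb 10.31 (adjusted p = 0.00135). How these transcripts came into the 0dpr samples was not tested.

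Lists of markers of other nearby tissues were examined as well. Of 4 lung epithelial genes 1 rose, Scgb1a1, the club cell protein, with 1 count in the baseline group and 51 at 0dpr, a ratio of 67.5 (95% counting interval 11.6 to 2720). It read 7.37 CPM in 0dpr replicate 1, 0.556 CPM in replicate 4 and 0 in the others, and the call was lost without replicate 1 (2.38, adjusted p = 0.421). Mesothelial genes gave 0 of 8 called and 0 with an unadjusted p under 0.05 in edgeR, 0 in DESeq2 and 2 higher without baseline replicate 4. Summed levels were 29.7, 29, 28.9 and 229 CPM at baseline and 116, 180, 67.4 and 30.1 CPM at 0dpr, so that baseline replicate 4 was the highest of all. Skin and mammary epithelial genes gave 0 of 4 called, 0 with an unadjusted p under 0.05 and 0 in DESeq2 (median 0.48). Counting intervals cover counting error only.

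The largest decreases were led by predicted and immunoglobulin genes, which made up 8 of the 12, among 1460 genes that fell under the same rule. The named genes were Acod1 and Klrc2, given above, and Muc6 and Gpr83. Muc6, a gel-forming mucin, fell from 2 ± 1.25 to 0.313 ± 0.124 CPM (-2.61, SE 0.689, adjusted p = 0.00577). Gpr83, an orphan receptor expressed in regulatory T cells, fell from 1.74 ± 0.193 to 0.266 ± 0.18 CPM (-2.67, adjusted p = 0.0412). Its call was lost without baseline replicates 1, 2 or 3 (adjusted p = 0.0739, 0.0814 and 0.0593) and without 0dpr replicates 1, 3 or 4 (adjusted p = 0.0827, 0.128 and 0.088).

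The same contrast in immature mice called 2257 of 21204 genes (10.6%), 1268 higher (5.98%) and 989 lower (4.66%), with a median log2 fold change of 0 over all genes. With only its own 8 libraries in the fit 48 were called. The count was 1230, 1491 and 1061 without immature baseline replicates 2, 3 and 6 and 1247, 3413 and 806 without immature 0dpr replicates 1, 2 and 3. The mature and immature contrasts share no library. Sarcomere genes had a median of 0.60 with 3 of 29 higher, and oxidative phosphorylation genes 0.22 with 3 of 82 higher, beside 1.26 and 0.71 in mature mice. Immediate early genes had 14 higher (median 0.54), cell cycle genes 20 lower (median -1.18) and neutrophil genes 4 lower (median -1.33). A change called at 1 age and not at the other is not a difference between ages, which was tested on its own. That test called 3 genes (0.0141%), 2 with the higher value in mature mice (0.00943%) and 1 with the lower (0.00472%), with 1712 at an unadjusted p under 0.05, and DESeq2 called 28. The count was 1 without mature baseline replicate 3 or 4, mature 0dpr replicate 1 or 3, or immature baseline replicate 2 or 4, 5 without mature 0dpr replicate 2 and 9 without immature 0dpr replicate 4. With only the 16 libraries of these groups in the fit the count was 0, with 1469 at an unadjusted p under 0.05.

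Scgb2b27, a secretoglobin, read 2.72, 1.17, 1.87 and 1.01 CPM at mature baseline and 4.71, 3.74, 4.21 and 5.7 CPM at mature 0dpr. In immature mice it went the other way, from 5.71, 6.08, 5.67 and 4.88 CPM to 2.54, 1.6, 1 and 1.11 CPM. The groups of each age did not overlap, and the log2 fold changes of 1.43 and -1.85 differed by 3.29 (SE 0.515, adjusted p = 0.00526). This call held with any 1 of the 16 libraries left out (adjusted p at most 0.0375). Mucl2, a mucin-like secreted protein, showed the same pattern, with 8.79 ± 3 and 28.7 ± 7.04 CPM in mature mice and 34.3 ± 8.78 and 13.6 ± 9.12 CPM in immature mice. Its log2 fold changes of 1.71 and -1.36 differed by 3.06 (SE 0.541, adjusted p = 0.023). The call for Mucl2 was lost without mature baseline replicates 2, 3 or 4 (adjusted p = 0.0824, 0.0858 and 0.0879), mature 0dpr replicates 1 or 3 (0.0654 and 0.0529), immature baseline replicates 2 or 4 (0.0853 and 0.0543) and immature 0dpr replicates 2 or 3 (0.0581 and 0.0562). Both genes belong to families with similar copies, and reads shared between copies make their counts uncertain.

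Apold1, an early response gene of endothelial cells, differed in the opposite sense. In mature mice it read 19.8 ± 4.24 CPM at baseline and 20.4 ± 3.83 CPM at 0dpr (0.04, adjusted p = 0.938), with small negative values without mature baseline replicate 2 (-0.07) or mature 0dpr replicate 4 (-0.12). In immature mice it rose from 9.45 ± 0.677 to 42 ± 25.2 CPM (2.15, adjusted p = 2.16e-05), and the difference was -2.11 (SE 0.392, adjusted p = 0.0371). That difference lost its call without mature baseline replicates 1, 3 or 4 (adjusted p = 0.063, 0.0859 and 0.104), mature 0dpr replicates 1, 2 or 3 (0.0654, 0.0734 and 0.0804), any of the immature baseline replicates 2, 3, 4 and 6 (0.0853, 0.119, 0.0613 and 0.0987) or immature 0dpr replicate 1 (0.157). The predicted gene Gm47283 and the noncoding transcript 8030453O22Rik came next and did not pass (adjusted p = 0.0844 and 0.123), and both passed without immature 0dpr replicate 4 (adjusted p = 0.0493 each). Within mature mice Gm47283 had 0 counts in the baseline group and 46 at 0dpr, at least 20.3-fold higher. 8030453O22Rik had 28 counts at baseline and 0 at 0dpr, at least 7.05-fold lower, against a floor of 3 counts over the group.

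**Figure D5:**
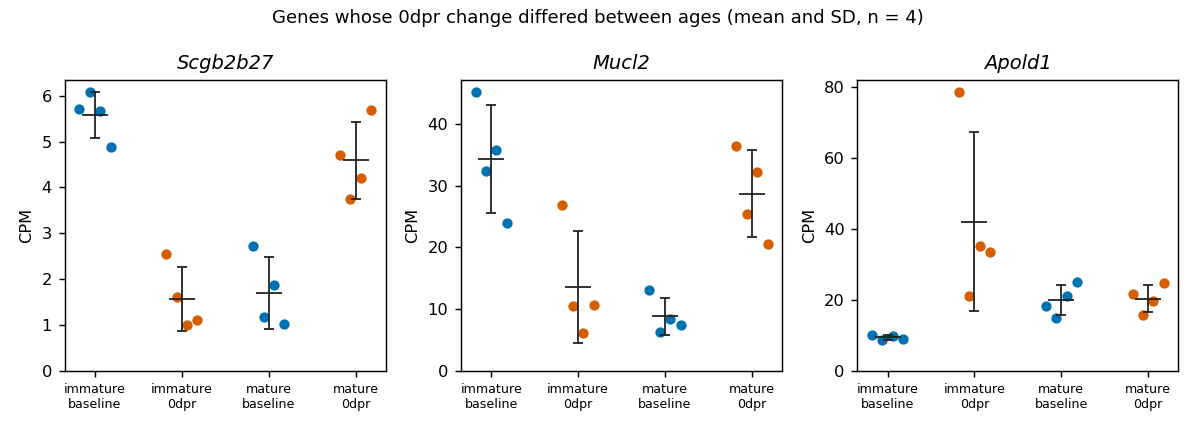
Level in CPM of Scgb2b27, Mucl2 and Apold1 in each baseline and 0dpr library of mature and immature mice. Scgb2b27 and Mucl2 were higher at 0dpr in mature mice (1.43 and 1.71) and lower in immature mice (-1.85 and -1.36), and Apold1 rose in immature mice alone by 2.15.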

How the data were processed

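Bulk RNAseq reads were aligned to GRCm38 with STAR 2.5.2a according to the submitters' processing notes. Raw counts per gene were deposited by the authors as a full table (48733 genes) and as a filtered table (21204 genes, filter rule not stated), and the filtered table was used. A signal table of TMM-scaled CPM was also deposited by the authors, and CPM computed here differed from it by at most 4.99e-15 (relative). Gene symbols came from the authors' table (21051) or the reference names (82), and 21132 identifiers had GRCm38 positions. 1 transgene sequence (4370 counts over all libraries) stayed among the tested genes.

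Tests used edgeR 4.0.16 in R 4.3.3 (limma 3.58.1): TMM factors, the quasi-likelihood F test over all 39 libraries with 1 coefficient for each of the 10 groups, Benjamini-Hochberg adjustment over 21204 genes and a threshold of 0.05. SE is the log2 fold change divided by the root of F. The difference between ages is the mature minus the immature contrast. Scores are means of log2 CPM with a prior count of 2. Scripts were tested on simulated data. Alternatives were RLE and upper-quartile scaling, DESeq2 1.42.0, other count filters, fits of the compared libraries alone, the replicate number as a block, tissue scores as covariates, other thresholds and left-out libraries.

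Named genes were the 12 largest changes in each direction among called genes with a mean of at least 1 CPM and no overlap (predicted and immunoglobulin variable genes counted, not described), up to 4 members with the smallest p per direction of each of 50 gene lists or the 2 most abundant of a list with no call, and the 5 smallest p for the difference between ages. Not every gene that meets this rule is reported, and those chosen after their values were seen are marked. The comparison and the lists were chosen with earlier results of these data known. Lists were described by counts and medians, with no test. The sources do not state how counting treated strand, so overlapping antisense genes could share reads.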

Additional observations from a re-analysis of the deposited data

Results flagged for a closer look

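Among 350 groups of 4 values examined, 19 held a library far from the other 3, by Dixon's ratio of the gap to the range at its 95% critical value. About 1 in 20 groups would do so by chance. At mature baseline, replicate 1 was highest in Alb (9.85 CPM), Pzp (1.57 CPM) and summed liver genes (10.5 CPM) and lowest in Acly (159 CPM). Replicate 2 was highest in Ucp1 (39.7 CPM) and Scgb1a1 (0.0838 CPM), the latter from 1 count in the whole group, which fixes the ratio. Replicate 3 was highest in Il1b (61.4 CPM). Replicate 4 was highest in summed adipocyte (4070 CPM) and mesothelial genes (229 CPM) and lowest in Mmp9 (321 CPM) and in summed T and NK cell genes (92.8 CPM). At mature 0dpr, replicate 1 was highest in Ucp1 (851 CPM), Scgb1a1 (7.37 CPM) and summed osteoblast genes (10600 CPM). Replicate 2 was highest in Plaur (21.2 CPM) and summed coagulation genes (1020 CPM) and lowest in summed satellite cell genes (253 CPM). Replicate 3 was highest in summed muscle atrophy genes (1090 CPM), and replicate 4 in Fcgr1 (6.81 CPM).

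The log2 fold change at 0dpr differed between mature and immature mice in 3 genes. The difference was 3.29 for Scgb2b27, 3.06 for Mucl2 and -2.11 for Apold1.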

How the results depend on the processing

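The mature contrast called between 3099 and 5451 genes with 1 library left out, 1724 to 2471 higher and 1192 to 3012 lower, and 4031 to 5572 under other scalings, count filters or DESeq2. With a covariate that follows tissue makeup it called 4339 genes (2228 higher, 2111 lower) with the erythroid score, 33 (29 and 4) with the sarcomere score, and 1218 (788 and 430) with the neutrophil score, which was chosen after seeing the data. The share of calls that were higher was 52.7%, and 51.3%, 87.9% and 64.7% with these scores. Without 0dpr replicates 1 and 2, also chosen after seeing the data, 3738 genes were called. The cause was not tested. An adjusted p under 0.01 called 2693 genes, 1539 higher and 1154 lower.

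The difference between ages called 1 to 9 genes with 1 library left out, 28 in DESeq2, 0 in the 16 libraries alone, 2 with the sarcomere or erythroid score or without both 0dpr libraries, 1 at an adjusted p under 0.01 and 436 at an unadjusted p under 0.01. The immature contrast called 806 to 3413 with 1 library left out, 48 in its 8 libraries alone, 873, 341 and 92 with the sarcomere, erythroid and neutrophil scores, and 647 at an adjusted p under 0.01. The immature libraries were left out as an alternative chosen after seeing the data. The difference in total count ran from -1440000 to -106000 with 1 library left out.

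With the replicate block, 4750 genes were called in the mature contrast, 3 in the difference and 802 in the immature contrast. Same-numbered samples correlated at -0.107, 0.167, -0.0216 and -0.0737 in mature mice. For the shared numbers 2, 3 and 4 in immature mice the values were -0.0238, 0.0197 and 0.0256. Such values give no clear sign of pairs, but they cannot exclude that equal numbers mark related samples. No sample but mature baseline replicate 2 correlated best with its own number.

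The sign turned for Fbxo32 (-0.01), Trim63 (-0.11) and Rpl3l (-0.15) with the sarcomere score; Hbb-bs (0.37 and 0.64) and Hba-a1 (0.28 and 0.5) with the erythroid and neutrophil scores; and Apold1 with these scores (-0.06 and -0.31). Over all genes with at least 1 count Apold1 had 0 (adjusted p = 1). Without 1 library it turned for Apold1 (-0.12 to 0.12), Hbb-bs (-0.31 to 0.12) and Ighm (-0.02 to 0.82). Of 124 named genes, the direction and the side of the threshold were as in the report for 124 with RLE or upper-quartile scaling, 120 in DESeq2, 123 with the replicate block, 16 with the sarcomere score, 54 with the neutrophil score, 100 without both 0dpr libraries and 110 to 122 with 1 library left out.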
